A study of Homo sapiens with 17 samples.

Results

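Coding exon sites away from splice sites are the polymerase positions that lie inside protein-coding sequence, well clear of both the gene's start and the exon's borders. They were chosen from the deposited site tables as positions in chromosomes 1 to 22 inside a coding feature of a GENCODE release 29 protein-coding gene on the same strand. A position also had to be more than 50 bp from any annotated exon end and more than 1000 bp downstream of the nearest upstream transcript start. The rule used no measured value. It kept 2063 distinct positions in 931 genes, which is 1.30% of the 158141 distinct positions in all tables. Of these, 1715 positions were listed in 1 table, 271 in 2 tables, 53 in 3 tables and 24 in all 4 tables.

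The tables come from time-variant precision run-on sequencing of HEK293, a human embryonic kidney cell line, with no genetic change or drug named for the libraries used. Permeabilised cells were left to extend their nascent RNA for 0.5, 2, 8 or 32 min, in a standard run-on buffer that contains the detergent sarkosyl or in the same buffer with sarkosyl left out. Each of the 4 tables, called a series here, covers 1 buffer and 1 of 2 replicate numbers, and gives each site a pausing time, which rests on all 4 run-on times together, as the table names and sample titles imply. No unit was given for the time, the tables hold no read numbers, and nothing in the labels says whether replicates were separate cultures, so p-values measure only the spread between series. One further sample, labelled as a treatment, was not analysed here.

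RNA polymerase II does not move through a gene at an even pace. It is known to halt shortly after the start of most active genes, and in the gene body it slows or backtracks at particular sequences, at nucleosomes and around exon borders, where slower movement gives the splicing machinery more time. Sarkosyl strips many proteins from chromatin but leaves engaged polymerases able to extend their RNA, so that run-on with the detergent reads out polymerases freed of such proteins. Sites deep inside coding exons sit apart from both the start and the splice sites, in sequence that is also under selection for the protein it encodes.

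The series listed between 38853 and 62065 sites in chromosomes 1 to 22. Among genes associated with HEK293 cells, VIM, KRT8, KRT18, NEFL, CDH2 and SALL1 held at least 1 site on their strand, and NEFM, NEFH, PAX2, PAX8 and LHX1 had none. Of 12 blood cell genes, looked at because the design text also names the blood cell line KBM7, GATA2, LMO2, MYB and PTPRC held sites. These 4 genes had 4 and 6 sites in the series with sarkosyl, 0 in both others, and SPI1, TAL1, CD33, CD34, MPO, VAV1 and IKZF1 had none; GATA1 is on chromosome X and was not counted. The part of these sites in the results was not tested.

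Single sites give examples of the sequences described below. The 4 windows that follow are from ZNF227, a gene for a protein made of repeated zinc fingers, and are shown because all 4 sites were listed in every series and stand at the same place of a repeated unit. Windows are GRCh38 coordinates, 5′ to 3′ on the transcript, taken from GENCODE transcript sequences. Capitals mark 11 bases that run from the last histidine codon of a finger into the linker to the next finger. The first capital is the site, at the first base of that codon.
ZNF227 site 1, chr19:44235708-44235738, plus strand: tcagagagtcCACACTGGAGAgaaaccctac
ZNF227 site 2, chr19:44236296-44236326, plus strand: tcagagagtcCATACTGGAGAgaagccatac
ZNF227 site 3, chr19:44236380-44236410, plus strand: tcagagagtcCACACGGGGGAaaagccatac
ZNF227 site 4, chr19:44236716-44236746, plus strand: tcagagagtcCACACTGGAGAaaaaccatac

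The next windows are from sites listed in both series of a buffer, with the site as the only capital. Guanine was at 71.2% of all sites shared by the sarkosyl-free pair, and cytosine at 78.9% of those shared by the sarkosyl pair. The opposite extremes were mixed. The longest sites of the sarkosyl pair were on thymine, cytosine and guanine, and the shortest of the sarkosyl-free pair were on guanine or cytosine. The SPEN, ZNF594 and KCTD3 sites had the longest mean times of the sarkosyl-free pair and all have guanine at the site.
SPEN site 1, chr1:15929996-15930026, plus strand: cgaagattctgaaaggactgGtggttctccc
ZNF594, chr17:5182255-5182285, minus strand: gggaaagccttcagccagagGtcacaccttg
KCTD3, chr1:215620586-215620616, plus strand: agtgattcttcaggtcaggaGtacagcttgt
The CCDC8, BCLAF1 and second SPEN sites had the shortest mean times of the sarkosyl pair and all have cytosine at the site.
CCDC8, chr19:46411355-46411385, minus strand: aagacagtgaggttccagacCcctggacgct
BCLAF1, chr6:136278557-136278587, minus strand: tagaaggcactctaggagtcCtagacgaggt
SPEN site 2, chr1:15932706-15932736, plus strand: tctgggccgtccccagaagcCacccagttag

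Nearly every coding exon site lay on a cytosine or a guanine, and which of them led differed between the tables. Cytosine was at the site in 79.2% of 490 sites of sarkosyl replicate 1 (95% Wilson interval 75.4% to 82.5%) and in 81.2% of 617 sites of sarkosyl replicate 2. Guanine held 17.8% and 15.2% there. In sarkosyl-free replicate 1 cytosine and guanine were close to even, at 50.6% and 48.1% of 846 sites, and in sarkosyl-free replicate 2 guanine led with 81.9% of 559 sites, against 16.8% cytosine. Adenine and thymine were each at the site in 2.11% or less in every series. The eligible positions of the same exons held 23.1% to 26.9% cytosine and 24.6% to 26.0% guanine. The intervals count sites only and hold no replicate error.

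The mean share of cytosine was 80.2% ± 1.43 (SD, n = 2 series) with sarkosyl and 33.7% ± 23.9 (SD, n = 2) without it. The 2 sarkosyl series were higher than both sarkosyl-free series, but an exact permutation test of 2 series against 2 cannot go below p = 0.33, and gave that value. The sarkosyl-free replicates differed from each other by more in guanine share than sarkosyl-free replicate 1 differed from the sarkosyl series. Which nucleotides carried the label in each run-on is not given in the sources used here. Coding sites within 50 bp of an exon end had like shares, with cytosine at 84.6%, 81.1%, 50.3% and 17.5% in the same order of series.

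The bases around the site were also uneven. Guanine stood 3 bases upstream in 55.3% and 49.6% of sites with sarkosyl and in 44.8% and 46.5% without it, so that guanine led there in all 4 series. The base just upstream differed more: with sarkosyl it was cytosine in 62.2% and 58.3% of sites, and without sarkosyl it was adenine in 40.7% and 53.5%. The base just downstream was seldom guanine, in 12.7% and 10.9% of sites with sarkosyl and 3.55% and 2.68% without it, while thymine held 44.7% and 43.3% with sarkosyl and 43.7% and 64.2% without it, and led in all series but sarkosyl-free replicate 1, where adenine held 45.9%. Adenine 4 bases upstream reached 53.9% and 46.9% without sarkosyl, against 39.8% and 40.5% with it.

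**Figure D1:**
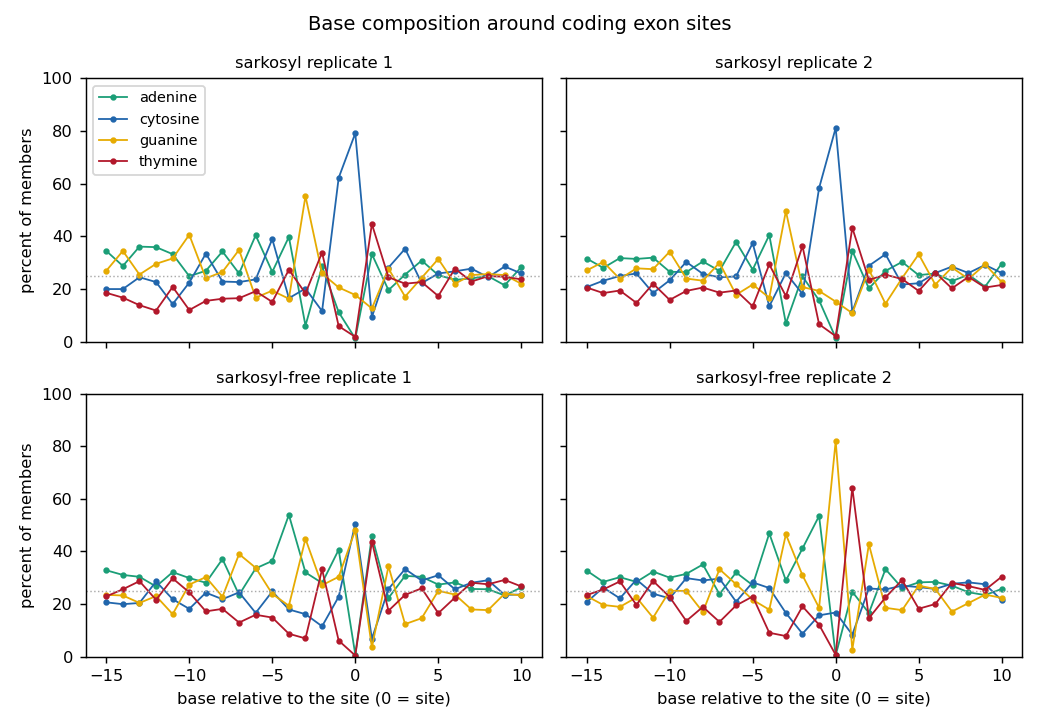
Share of each base (percent of coding exon sites, vertical axis) at each position around the site (bases, horizontal axis, 0 is the site), 1 panel per series; the dotted line marks an even share of the 4 bases. Cytosine peaks at the site in both sarkosyl series, guanine peaks in sarkosyl-free replicate 2, and guanine is raised 3 bases upstream in every panel.

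The hexamers spanning 3 bases before to 2 bases after the site show the same contrast in single contexts. In sarkosyl replicate 2 the leading one was gtcCac, at 16 of 617 sites, and it was among the leading 3 of sarkosyl replicate 1 with 11 of 490 sites; here the capital is the site. In sarkosyl-free replicate 1 it was atgCtg, at 25 of 846 sites, followed by agaGac at 20. In sarkosyl-free replicate 2 gaaGtg led with 19 of 559 sites and gatGtg followed with 18. No single context held more than 3.40% of a series.

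The sites were spread over all 3 codon positions in every series, and no test of the differences was made. The middle base of the codon held 33.1% and 31.4% of sites with the detergent, and 36.4% and 37.9% when it was left out, against 33.3% of the eligible positions. The third base of the codon held 28.3% of sites in sarkosyl-free replicate 2 and 36.0% in sarkosyl replicate 2. The eligible positions are of any base and were not matched to the cytosine and guanine of the sites. These shares therefore also hold the base preference of each series.

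Most coding exon sites were in long exons, which is where the distance rule leaves room. The exon holding a site had a median length of 2162 bp (quartiles 581 and 3765), and 68.6% of sites were in exons longer than 1000 bp. The last or only exon of the transcript held 49.5% of sites, and 86 sites were in genes whose transcript has a single exon. The median distance was 284 bp to the nearest exon end and 5867 bp to the nearest upstream start. Chromosome 19 held 347 of the 2063 sites, and 36 sites lay in coding features of 2 genes, so that their gene is uncertain.

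The sites were spread unevenly over many genes. Most genes, 590 of 931, held 1 site, while 83 genes held 5 or more, and the 12 genes with the most sites held 13.9% of all. SPEN, a large RNA-binding repressor known for silencing the inactive X chromosome, held 50 sites. Of these, 47 were in exon 11 of 15, an exon of 8176 bp at chr1:15928091-15936266. SON, a scaffold of nuclear speckles that aids splicing, held 33 sites, all in exon 3 of 12 (chr21:33549476-33555391, 5916 bp). ZNF226 and ZNF227, neighbouring zinc finger genes of chromosome 19, held 30 sites each, all in the last of 6 exons.

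The next genes by count were CENPF, a kinetochore protein, with 22 sites, ASPM, a spindle pole protein, with 21, and EGR1, an immediate early transcription factor, with 20. JUN, a subunit of the AP-1 transcription factor whose gene has no intron, and SRRM2, a second speckle scaffold, held 18 each. CASP8AP2, which works in histone mRNA processing, MKI67, the proliferation marker Ki-67, and PCF11, a factor of transcript cleavage and termination, held 15 each. ZNF268 also held 15 and was left out of the 12 by alphabetical order.

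Counted per length, the order among the 12 genes with the most sites was another. JUN held 18.1 sites per 1000 eligible bp of its exon, ZNF227 17.0, ZNF226 16.0, EGR1 15.7 and SON 9.79. SPEN held 6.08 and MKI67 2.12. Some genes with fewer sites stood higher, among them DNAJC9 with 77.4 over 168 eligible bp and NOP56 with 25.6. All exons with at least 1 site held 2.28 per 1000 eligible bp, and all eligible coding sequence, sites or not, held 0.186. The number of sites that a table lists depends on a calling rule and a depth that are not given in the sources used here, so that these densities cannot be read as amounts of polymerase.

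Between the buffers, the genes did not contribute sites in equal measure. EGR1 had 13 and 14 sites with sarkosyl and 1 and 2 without it. ZNF226 had 9 and 7 sites with sarkosyl and 17 and 8 without, and CASP8AP2 had 1 and 2 with sarkosyl and 9 and 6 without. JUN was even, with 8 sites in 3 series and 7 in sarkosyl-free replicate 1. With 2 series a buffer, an exact permutation test of such counts cannot go below p = 0.33.

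Zinc finger genes held more sites than any other function list examined, and theirs was the longest list, with 465 genes against 17 to 79. Genes with a ZNF symbol, most of which encode DNA-binding repressors with many fingers in a single long exon, held 405 sites (19.6% of all) in 123 of 465 genes. Exons with such sites made up 20.6% of the eligible length of all exons with a site. Their share of sites was thus near their share of that length. Only exons that already hold a site were counted, and the share of zinc finger genes in all eligible coding sequence was not computed. Whether these genes held more sites than their coding length would give was therefore not tested. The part of zinc finger genes was 14.5% and 16.5% of sites in the sarkosyl pair, against 26.5% and 21.6% in the sarkosyl-free pair.

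Within zinc finger exons, sites recurred at fixed places of the finger repeat. The capitals of the 4 ZNF227 windows share the letters CANACNGGNGA, in which N is any base, and this motif was searched on the coding strand only. It encodes the end of a finger and the start of the linker that joins it to the next, and no other motif was searched. Of the 405 sites, 14 in 7 genes lay exactly on the first base of the motif, which is 3.46%, with the 4 windows among them, against 0.441% of the 186188 eligible positions of the same exons. A further 14 sites lay 9 bases after the first base, 16 sites lay 28 bases before it and 13 sites lay 40 bases before it, where eligible positions again held about 0.44% each. Of the 1658 sites in other genes, 0 lay on the first base of the motif. Motif starts among the eligible positions of those genes were not counted, so this 0 shows nothing particular to zinc finger genes. The eligible positions are of any base, while nearly all sites are on cytosine or guanine and the motif begins with cytosine. In a repeat the same base recurs at the same place, so these shares also hold the base preference of the sites. No share matched for the base was computed. The search was chosen after the windows had been seen, the places named are those with the most sites, and the figures are a description.

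ZNF227 held 6 of the 14 sites on the motif, ZNF226 and ZNF234 held 2 each, and ZNF174, ZNF224, ZNF235 and ZNF45 held 1 each. In ZNF227 successive sites on the motif were 336, 252, 84, 168 and 168 bases apart, which are 4, 3, 1, 2 and 2 lengths of an 84-base finger. Of these 6 sites, 4 were listed in all 4 series, and the remaining ones were listed in sarkosyl-free replicate 1. Neighbouring fingers and neighbouring genes of this family are near copies of each other, and how reads that fit several copies were placed is not given in the sources used here, so single finger positions are uncertain.

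**Figure D2:**
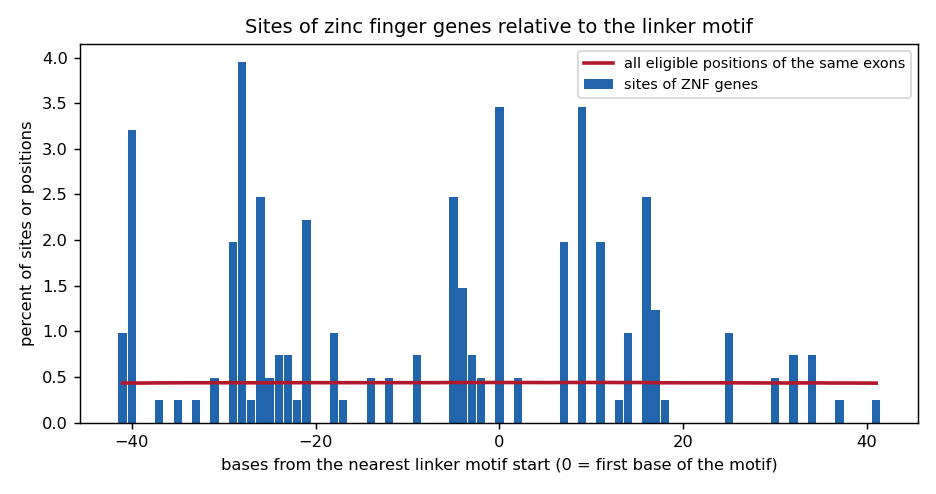
Sites in genes with a ZNF symbol (percent of 405 distinct sites, blue bars) by distance in bases from the nearest start of the linker motif, with the same share for all eligible positions of the same exons (red line). The bars stand in separate spikes, among them 3.46% at 0 and 3.95% at 28 bases before the motif, over a level line of about 0.44%. The line counts positions of any base and is not matched to the cytosine and guanine of the sites.

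Sites on the motif had a shorter median time than all coding exon sites in 3 of 4 series. In sarkosyl replicate 2 the 2 medians were level, at 1.58 and 1.59. At ZNF227 site 2 the time was 1.22 and 1.72 with sarkosyl, and 0.494 and 0.433 in the other buffer. At ZNF227 site 3 it was 1.40 and 1.48 with sarkosyl, and 0.717 and 0.177 in the other buffer, the last being the shortest of all coding exon sites in sarkosyl-free replicate 2. Over all sites on the motif the median time was 1.21 (4 sites) and 1.58 (6 sites) with sarkosyl and 1.09 (12 sites) and 0.300 (4 sites) without it. In sarkosyl replicate 1 and sarkosyl-free replicate 2 these were only the 4 ZNF227 sites shown above. A ZNF226 site on the motif had a time of 8.93 in sarkosyl-free replicate 1. Other cytosine sites of zinc finger genes had medians of 1.73, 1.52, 1.52 and 0.801 in the same order, so that the sites on the motif were lower in 3 of 4 series.

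The level of coding exon sites as a whole followed that of their series. Their median time was 2.14 and 1.59 in replicates 1 and 2 with sarkosyl, and 2.65 and 7.75 in those without it. On the log2 scale the mean of the medians was 0.88 ± 0.30 (SD, n = 2) with sarkosyl and 2.18 ± 1.09 (SD, n = 2) without it, a difference of -1.30 with an exact permutation p of 0.33, the smallest possible. Both sarkosyl series were below both sarkosyl-free series, but without sarkosyl-free replicate 2 the difference was -0.52. Among cytosine sites alone it was -0.42, among guanine sites alone -1.29, and among the more certain 50% of sites -3.40.

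Against all other autosomal sites of the same series, the coding exon sites had longer times in 3 of 4 series. The difference of medians on the log2 scale was 0.51 and 0.23 in the sarkosyl pair, 0.26 and -0.08 in the sarkosyl-free pair, with a mean of 0.23 and an exact sign-flip p of 0.25. The difference itself did not separate the buffers (0.37 ± 0.20 with sarkosyl and 0.09 ± 0.24 without, SD, n = 2, exact permutation p = 0.67). Restricted to sites listed in both series of a buffer, on both sides of the comparison, the mean was 0.48, positive in 4 of 4 series, with p = 0.125, the smallest an exact test on 4 series can give. Among the more certain 50% of sites the mean was 0.04, again negative in sarkosyl-free replicate 2, with an exact sign-flip p of 0.5. That filter selects on the time, as described above, so this value cannot decide whether the excess holds.

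The other coding sites of the same kind of gene did not differ in a steady direction. Against coding sites within 50 bp of an exon end, of which the series listed 396 to 827, the differences were 0.08, -0.07, 0.13 and -0.31 (mean -0.04, exact sign-flip p = 0.88). Against sites deep in introns they were 0.38, 0.09, 0.16 and -0.37 (mean 0.07, p = 0.63 in the same exact test). Both means are smaller than the spread between series, and both changed sign under some alternatives. With 4 series this test cannot go below 0.125.

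**Figure D3:**
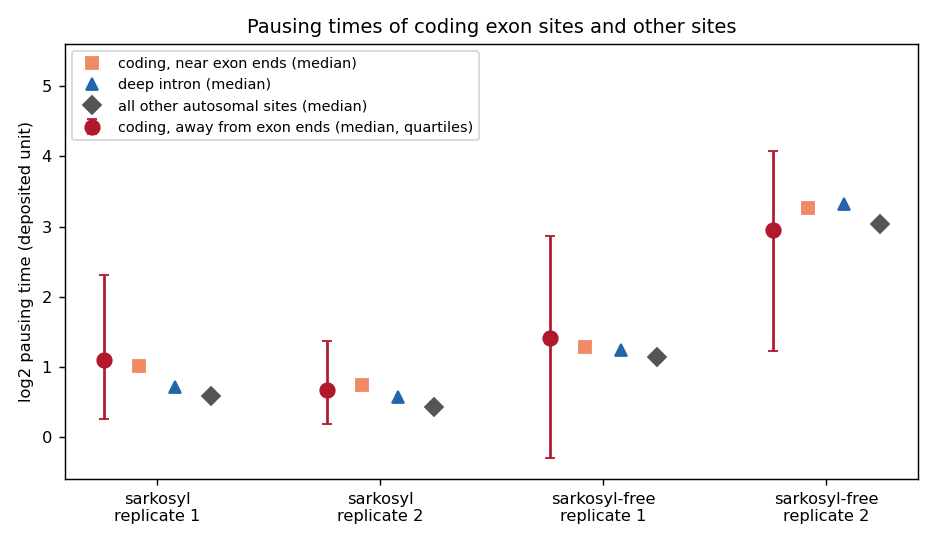
Median log2 pausing time (vertical axis, deposited unit) in each series for coding exon sites away from exon ends (red circles, with bars for the quartiles over sites) and for 3 other classes (squares, triangles and diamonds). The classes of a series lie closer to each other than sarkosyl-free replicate 2 lies to the other series.

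Sites on guanine had longer times than sites on cytosine in all 4 series. The median time of cytosine sites was 1.98, 1.53, 2.10 and 2.56 in sarkosyl replicates 1 and 2 and sarkosyl-free replicates 1 and 2. That of guanine sites was 2.77, 1.93, 3.83 and 8.33. The log2 difference was 0.49, 0.33, 0.87 and 1.70, with a mean of 0.85 ± 0.61 (SD, n = 4) with an exact sign-flip p of 0.125, the smallest possible. Without chromosome 19 the mean was 0.48, with the same direction in every series. Among the more certain 50% of sites the mean was 0.25 with an exact sign-flip p of 0.375, and the direction turned in sarkosyl-free replicate 2. Here too the filter selects on the time. Coding sites near exon ends gave 0.84, -0.04, 0.98 and 1.29. Exonic sites within 1000 bp of a start gave 0.07, 0.14, 0.65 and 1.36. Exonic sites outside coding features and over 1000 bp from a start gave 0.85, 0.14, 0.69 and 1.13. The direction was thus not particular to the coding exon sites. This comparison was chosen after the base shares had been seen.

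**Figure D4:**
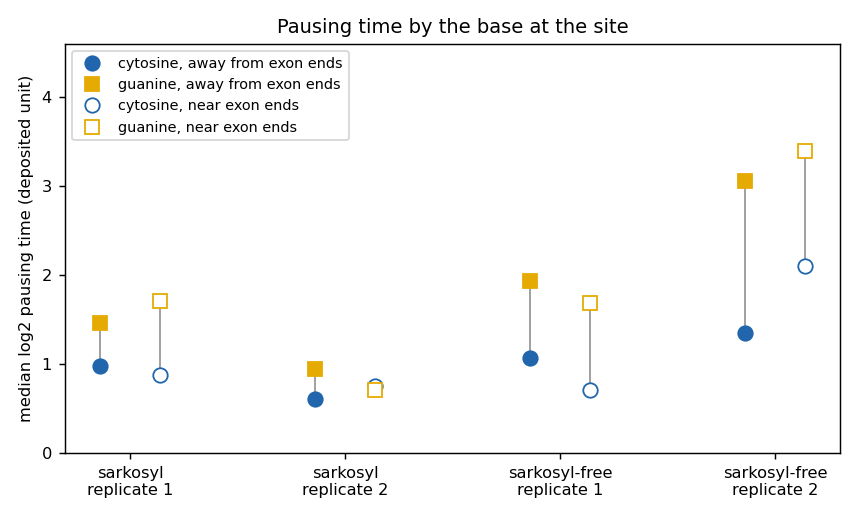
Median log2 pausing time (vertical axis, deposited unit) of cytosine sites (blue circles) and guanine sites (yellow squares) by series, for coding sites away from exon ends (filled) and near them (open); grey lines join the pair. Filled squares are above filled circles in all 4 series, by 0.33 to 1.70.

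The series differed in how wide the times were spread. The quartiles of log2 time were 0.27 and 2.31 for replicate 1 with sarkosyl and 0.19 and 1.37 for replicate 2. Without sarkosyl they were -0.29 and 2.87 for replicate 1, and 1.23 and 4.08 for replicate 2. The longest time with sarkosyl was 50, in ZNF227 at chr19:44236023, and the longest without it was 250.0, in the homeobox gene EVX2 at chr2:176080300. The authors' own quartiles of a site's rate differed by a median factor of 2.24 to 3.55, so a single time carries a wide error.

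Distance to the exon end or to the start did not order the times in the same way in every series. Relative to the median of all autosomal sites of the series, sites more than 1000 bp from an exon end had the longest bin median in sarkosyl replicate 1 (1.14, 77 sites), sarkosyl replicate 2 (0.31, 85 sites) and sarkosyl-free replicate 1 (0.71, 133 sites). In sarkosyl-free replicate 2 that bin was at -0.05 (92 sites) and the bin of 501 to 1000 bp was highest at 0.04. Sites 101 to 200 bp from an exon end ranged from -0.55 to 0.46 over the series. At the border of the rule, sites 51 to 60 bp from an exon end had medians of 0.60, 0.30, 0.23 and 0.33, and coding sites 41 to 50 bp from one had 0.91, 0.26, 0.23 and 0.47. At the other border, sites 1001 to 1100 bp from a start had 0.58, 0.19, -0.57 and 0.51 (8 to 12 sites), and those at 901 to 1000 bp had 1.12, 0.13, -0.03 and -0.11 (8 to 21 sites).

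Replicates shared only part of their coding exon sites. The 2 sarkosyl series shared 166 sites, 33.9% of replicate 1 and 26.9% of replicate 2, and over these sites Spearman's rho of the times was 0.61. The 2 sarkosyl-free series shared 146 sites, 17.3% of replicate 1 and 26.1% of replicate 2, with a rho of 0.36. Over all autosomal sites rho was 0.69 and 0.47. Between a sarkosyl and a sarkosyl-free series 58 to 73 sites were shared and rho was 0.02 to 0.19. These are descriptions across sites, which share libraries and neighbours. Of the sites shared by both sarkosyl-free series 71.2% were on guanine, and of those shared by both sarkosyl series 78.9% were on cytosine.

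Within genes, medians over at least 5 sites in each series of a buffer could be set side by side for 13 genes with sarkosyl and 9 without. They are given relative to the median of all autosomal sites of the series, on the log2 scale. With sarkosyl the longest were JUN (1.84 and 0.99 in replicates 1 and 2), SON (1.50 and 0.84) and the transcription factor gene SOX4 (1.10 and 1.09). The shortest were DNAJC9, a histone co-chaperone (-0.57 and -0.03), ATF4, a stress-response transcription factor (-0.78 and 0.23), and TUBB4B, a beta tubulin (-0.22 and -0.08). The replicates of ATF4 fell on both sides of the series medians.

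Without sarkosyl the longest were CASP8AP2 (0.81 and 1.20), JUN (1.27 and 0.08) and SPEN (0.99 and 0.07). The shortest were ZNF227 (-0.43 and -2.54), CENPF (-2.60 and -0.06) and ZNF594 (0.79 and -1.04), the last again on both sides of the medians. The median time over ZNF227 was 1.65 and 1.41 without sarkosyl, from 21 and 12 sites, and 1.55 and 1.62 with it, from 11 and 14 sites. ZNF227 was thus close to level in absolute time while the series around it differed. For SPEN the medians were 2.47 and 2.19 in the sarkosyl pair, then 4.41 and 8.60, and for SON 4.29, 2.43, 5.65 and 4.43 in the same order.

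Single sites could be compared between the buffers where all 4 series listed them, which held for 24 coding exon sites among 2967 sites of the whole tables. In limma, fitted on all 2967 sites with the median of every series set to 0 beforehand, 0 of the 24 sites passed a Benjamini-Hochberg adjusted p of 0.05, and 0% of all sites did. The smallest adjusted p of a coding exon site was 0.18 in that fit. On simulated data with the observed spread, the same fit did not recover changes of the size seen at these sites, so that the count of 0 does not show that the buffers were alike. At an unadjusted p under 0.05, 2 of the 24 sites passed, both with longer times with sarkosyl, against 23.2% of all sites (12% longer and 11.2% shorter with sarkosyl). The centred series of the 2 buffers did not overlap at 10 of the 24 sites, against 57.3% of all sites. Without overlap, 9 of the 24 sites were longer with sarkosyl, against 31.6% of all 2967 sites. In the same way 1 of the 24 was shorter, against 25.7% of all 2967 sites. The centred log2 difference was positive at 18 of the 24 sites with a median of 0.96, and its median over all sites was 0.22.

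The calls rested on the sarkosyl-free replicates. Without sarkosyl-free replicate 1, 11 of the 24 sites passed the adjusted threshold in limma, all longer with sarkosyl, against 53.8% of all sites (28.5% longer with sarkosyl). Without sarkosyl-free replicate 2, 3 of the 24 passed, of which 1 was longer with sarkosyl, against 22.2% of all sites. The counts of the 24 sites are read against these shares, and nothing particular to the coding exon sites was called from them. In these fits the lone series of the buffer is assumed to vary like the others.

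**Figure D5:**
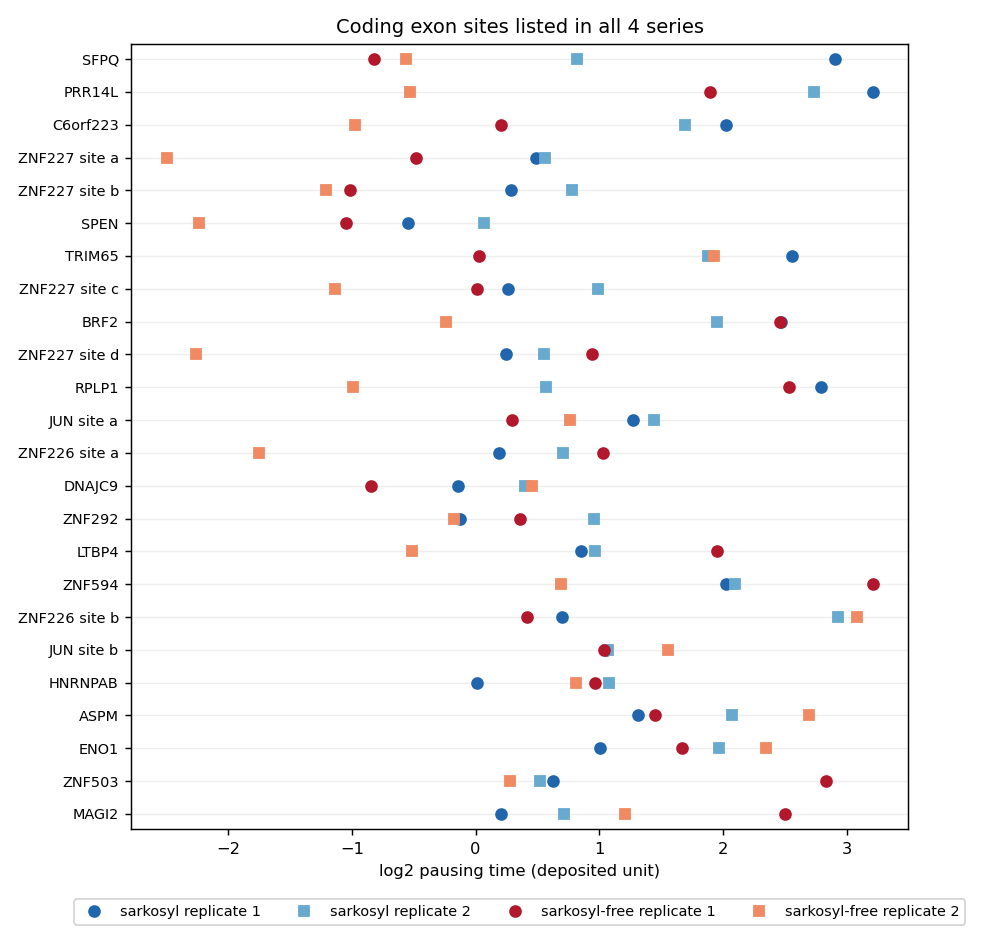
Log2 pausing time (horizontal axis, deposited unit, not centred) of the 24 coding exon sites listed in all 4 series, ordered by the difference between buffers; circles are replicate 1 and squares replicate 2, blue with sarkosyl and red or orange without. At the top the blue symbols lie to the right of the others, and in the lower rows the colours mix.

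Windows are shown for 3 of the 4 sites with the smallest unadjusted p, the other being ZNF227 site 2, and for the MAGI2 site, the only one that was shorter with sarkosyl where the centred series did not overlap. The capital is the site.
C6orf223, chr6:44002769-44002799, plus strand: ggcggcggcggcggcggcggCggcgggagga
SFPQ, chr1:35190913-35190943, minus strand: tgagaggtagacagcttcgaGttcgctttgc
PRR14L, chr22:31715415-31715445, minus strand: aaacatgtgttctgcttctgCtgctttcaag
MAGI2, chr7:78019793-78019823, minus strand: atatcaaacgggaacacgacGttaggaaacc

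C6orf223 is an open reading frame of unassigned function, and its site stood in a run of ggc repeats in exon 4 of 4. With sarkosyl the times there were 4.08 and 3.24, and otherwise 1.15 and 0.509. The log2 difference was 2.38 (SE 0.81) with an adjusted p of 0.18 in limma. SFPQ encodes a splicing and paraspeckle protein, and its site lay in exon 3 of 10, 72 bp from the exon end. With sarkosyl its times were 7.52 and 1.77, and 0.565 and 0.679 otherwise, and the sarkosyl replicates differed from each other more than the sarkosyl-free ones did. ZNF227 site 2, described above, had the third smallest p of the sites that were longer with sarkosyl, with a log2 difference of 1.78 (SE 0.72).

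PRR14L, which encodes a proline-rich protein, had times of 9.26 and 6.67 with sarkosyl and 3.73 and 0.692 without it, in exon 4 of 9. MAGI2, a scaffold protein of cell junctions and synapses, held the only site that was shorter with sarkosyl in both series after centring, with times of 1.15 and 1.64 in the sarkosyl pair against 5.68 and 2.31. Its log2 difference was -1.26 (SE 0.83). All adjusted p-values of these sites in limma were between 0.18 and 0.39.

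The rest of the 24 sites held further ones that were longer with sarkosyl without overlap after centring, and others where the buffers were mixed. A JUN site of the first kind had 2.42 and 2.72 with the detergent and 1.23 and 1.70 in its absence. Another JUN site, where the buffers were mixed, had 2.08 and 2.10 with the detergent and 2.06 and 2.94 in its absence. The site in ENO1, a glycolytic enzyme, had 2.00 and 3.91 with sarkosyl and 3.17 and 5.10 without. The site in RPLP1, a protein of the ribosomal stalk, had 6.94 and 1.49 with the detergent and 5.78 and 0.503 in its absence. At ENO1 and RPLP1 the replicates of a buffer differed by more than the buffers did.

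Among sites listed in both sarkosyl series, the longest were in SPEN (17.2 and 35.7), in POLE, the catalytic subunit of DNA polymerase epsilon (14.9 and 30.3), and in ZNF227 (50 and 7.81). None of these 3 sites was listed without sarkosyl. The SPEN site, at chr1:15928912, was on thymine, and the POLE and ZNF227 sites were on cytosine and guanine. The shortest were in CCDC8, a component of the 3M complex (0.666 and 0.703), BCLAF1, an RNA-binding protein (0.694 and 0.870), and at SPEN site 2 (0.684 and 1.05). BCLAF1 had 2.74 in sarkosyl-free replicate 1.

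Among sites listed in both sarkosyl-free series, the longest were SPEN site 1 (28.6 and 58.8), ZNF594, a zinc finger gene whose representative transcript has a single exon (19.6 and 58.8), and KCTD3 (30.3 and 33.3), and none of them was listed with sarkosyl. The shortest were in CLEC11A, a secreted growth factor (0.197 and 0.503), SPEN site 2 (0.483 and 0.212) and ZNF227 site 3. SPEN site 2 was thus among the shortest in both buffers. CLEC11A had a time of 3.68 in sarkosyl replicate 1. Exon 11 of SPEN thus held sites at both ends of the range.

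Function lists other than zinc fingers were shorter and held fewer sites. Their medians are given as log2 differences from the median of all autosomal sites of the series. All coding exon sites had 0.50, 0.23, 0.26 and -0.08. Genes of replication, chromosomes and mitosis held 76 sites in 12 of 37 genes, of which CENPF, ASPM and MKI67 gave 58, and their medians were 1.15, 0.11, 0.30 and -0.22. The hnRNP and splicing factor genes held 72 sites in 12 of 27 genes, mostly SON and SRRM2, with 1.23, 0.66, 0.54 and -0.12. Chromatin regulators held 34 sites in 13 of 29 genes, led by BPTF with 7, with -0.19, 0.45, 0.91 and -0.31.

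Zinc finger genes themselves had 0.19, 0.26, 0.15 and -0.16 in the same order. Chaperone genes held 30 sites in 13 of 25 genes, led by HSP90AA1 with 7, and had -0.31, 0.33, 1.78 and -1.15 from 5 to 12 sites a series. Cytoskeletal genes held 26 sites in 9 of 25 genes, led by TUBB4B with 10, and 16 of their sites were in sarkosyl replicate 2 against 2 in sarkosyl-free replicate 2. Cytosolic ribosomal protein genes held 19 sites in 12 of 79 genes and nucleolar ribosome assembly genes 18 in 9 of 23, led by NOP56 with 8. Translation factor genes held 15 sites in 7 of 25 genes, of which EEF2, the elongation factor of translocation, gave 8. Glycolysis genes held 8 sites in 3 of 17 genes, and genes of polymerase pausing and elongation held 6 in 5 of 28. In the last 5 of these lists no series held more than 10 sites.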

How the data were processed

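The authors deposited 1 table per buffer and replicate number. Per the file headers, each row names a strand and position and holds summary values of an estimate and a pausing time; neither the unit of the time nor the model is given in the sources used here. In every row the reciprocal of the median rate gave the deposited time, and rates are rounded to 3 decimals. These deposited values are on no count, coverage or depth scale, and other units such as reads were not used. Per the submitters' processing notes, cutadapt 1.14, HISAT2 2.1.0, SAMtools, bedtools and the build hg38 were used. Value columns mapped to no group numbered 0.

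Positions were placed on GENCODE release 29 (GRCh38) and taken as counting from 1, since cytosine and guanine together peaked at the site itself on both strands (96.3% to 99.2%). Bases were read from GENCODE transcript sequences, which covered all 94913 coding transcripts. Each site took its exon from 1 representative transcript. Times were analysed as log2 values with R 4.3.3 and Python 3.11.15 (pandas 2.3.3, numpy 2.4.6, matplotlib 3.10.9, scipy 1.17.1). Series, not sites, were the replicates: medians were compared by two-sided exact permutation (smallest p 0.33) or exact sign-flip tests (smallest p 0.125). Single sites were tested with limma 3.58.1 (Benjamini-Hochberg, 0.05), a step tested on simulated data. Named genes were the 12 with the most sites and, per buffer, the 3 longest and 3 shortest medians among genes with at least 5 sites in each series. Named sites were the 4 smallest p in each direction where the centred series did not overlap (1 was available for shorter times), and per buffer the 3 longest and 3 shortest means. The sites, lists and rules were chosen with earlier results of these data known.

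Alternatives changed the distance limits, the counting of positions, the summary, the sites kept and the scaling, added a replicate block, and left out each series. One gene of the HEK293 marker list is not reported here.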

Additional observations from a re-analysis of the deposited data

Results flagged for a closer look

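The relation between a site's time and the authors' own uncertainty had opposite signs in the buffers, a difference that was not tested. Over the coding exon sites of a series, Spearman's rho between pausing time and the relative quartile range of the rate was 0.26 and 0.95 in replicates 1 and 2 with sarkosyl. Without sarkosyl the replicates gave -0.85 and -0.96. Both measures come from the same fitted rate.

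Sites 201 to 500 bp from an exon end had medians above that of their series with sarkosyl (log2 differences of 0.31 and 0.21) and below it without sarkosyl (-0.0127 and -0.21). This difference between the buffers was not tested, it is 1 of several distance bins, and in sarkosyl-free replicate 1 the value is close to 0.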

How the results depend on the processing

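Of 115 alternatives to 12 results, 105 were counted as the same. For differences this meant only that the sign was kept, whatever the size. For single sites it meant that limma called 0 of the 24 sites. The smallest p of the exact tests, 0.33 or 0.125, lies above 0.05, so they could cross no threshold. The difference from coding sites near exon ends (mean -0.04) became 0.00969 without chromosome 19 and 0.00628 in sites listed in both series of a buffer. It ranged from -0.10 to 0.0476 when a series was left out, the positive value being without sarkosyl-free replicate 2. The difference from deep intron sites (0.07) became -0.000302 among the more certain 50% of sites, and ranged from -0.0383 to 0.21 when a series was left out, the negative value being without sarkosyl replicate 1. The difference between buffers in the excess over other autosomal sites (0.28) became -0.00217 in sites listed in both series of a buffer. The excess over other autosomal sites (0.23) stayed positive in every alternative run, from 0.04 among the more certain 50% of sites to 0.48, with exact p-values of 0.125 to 0.5. The level difference between buffers (-1.30) stayed negative, from -3.40 among the more certain 50% of sites to -0.42. The certainty of a site was tied to its time, so values from the more certain 50% are no independent check. Counting positions from 0 turned the difference in guanine share from -48.5 to 2.99 percentage points. Among the more certain 50% of sites, rho between the sarkosyl replicates fell from 0.61 to 0.29, over 12 sites. The count of coding exon sites called by limma ranged from 0 to 11 when a series was left out, and that of all sites from 0 to 1597 (660 without sarkosyl-free replicate 2). With the replicate number as a replicate block, limma called 0 of the 24 sites, and 161 of all 2967; the deviations of same-numbered series correlated at 0.01 over all shared sites and at 0.39 over the 24, and the numbers were not treated as pairs, since the labels tie them to no shared culture or day. Quantile scaling and normal scores of ranks called 158 and 231 of all sites and 0 of the 24. Depth is unknown, so no limit of detection can be given, and the number of sites a series lists cannot be compared at equal depth. The removal of chromosome 19 or of SPEN, and the comparisons by base, were added after seeing the data.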
